A study of Caenorhabditis elegans with 6 samples.

Results

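The eggshell and egg activation genes followed here are cbd-1, perm-2, perm-4, chs-1, cpg-1, cpg-2, cpg-3, egg-3, egg-1 and egg-2, chosen by name for their roles. Earlier results of these data were known at that choice. All 10 were found by identifier among the 46748 genes of the count table, and all 10 passed the filter on low counts that left 13374 genes for testing. The animals were N2 hermaphrodites (the wild-type strain of Caenorhabditis elegans) at an age of 2 days, and whole worms were used. One group of 3 libraries came from worms under RNA interference (RNAi) against T25B9.1, a gene whose product is related to glycine C-acetyltransferase, a mitochondrial enzyme of threonine breakdown. The other group of 3 came from worms given L4440, the empty vector that serves as the control in RNAi by feeding. Both groups share strain, sex and age, and the labels name no other allele or agent. Whether the 3 replicates of a group were grown apart is not in the labels, so every p-value reflects the spread among these libraries, which can be technical.

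The eggshell of the worm is made in layers by the newly fertilised egg. An outer vitelline layer is laid down on the oocyte, a chitin layer is added beneath it after sperm entry, and a layer of chondroitin proteoglycans follows beneath the chitin before an inner lipid-rich permeability barrier closes. CBD-1, PERM-2 and PERM-4 belong to the vitelline layer, CHS-1 is the chitin synthase of the egg, and CPG-1 and CPG-2 are chitin-binding chondroitin proteoglycans. EGG-3 is a phosphatase-like protein without catalytic activity that holds CHS-1 and the kinase MBK-2 at the egg cortex, and EGG-1 and EGG-2 are related transmembrane proteins with LDL-receptor repeats that the oocyte needs for fertilisation. These transcripts are made mainly in the growing oocytes of the hermaphrodite gonad, so a level in whole worms depends on both the amount of oocyte tissue and the RNA in each oocyte. In these bulk samples fewer cells of a type and less RNA per cell cannot be told apart.

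The libraries held 26125982 to 40726259 counts. T25B9.1 itself was at 1.35, 1.71 and 1.76 CPM (counts per 1000000 counts of a library, after TMM scaling) in the T25B9.1 RNAi libraries, against 5.99, 4.99 and 6.39 CPM in the L4440 libraries, with no overlap. Its log2 fold change was -1.84 (SE 0.184, edgeR quasi-likelihood adjusted p = 0.0525), so the targeted transcript was lower in every library labelled RNAi. One library, T25B9.1 RNAi replicate 1, differed most: it lay at 41.9 on the first principal component, which held 47.1% of the variance, and the other libraries lay between -27.5 and 4.59. Across all 13374 genes the quasi-likelihood test called 0.0% at an adjusted p under 0.05, with 826 genes (6.18%) at an unadjusted p under 0.05. DESeq2 called 15 genes (0.112%), and limma-voom called 0.0%, with 710 genes (5.31%) at an unadjusted p under 0.05.

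None of the 10 eggshell and egg activation transcripts passed the test, and each had overlapping groups. Of the 10 log2 fold changes 8 were below 0, or 7 with library totals only, with upper quartile factors or with the stricter filter, and the median was -0.07. Over all tested genes 49.4% were below 0 and the median was 0.002. The lowest adjusted p among the 10 was 0.717 by edgeR, and 0 of the 10 had an unadjusted p under 0.05. The groups did not overlap for 10.9% of all tested genes, and did so for 0 of these 10. All 10 were deeply read, and the least abundant, egg-3, had 4287 counts in its lowest library. The 95% interval of the difference ran from -28.0% to 4.71% for perm-2, from -24.2% to 9.44% for perm-4 and from -16.0% to 7.46% for egg-1.

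**Figure D1:**
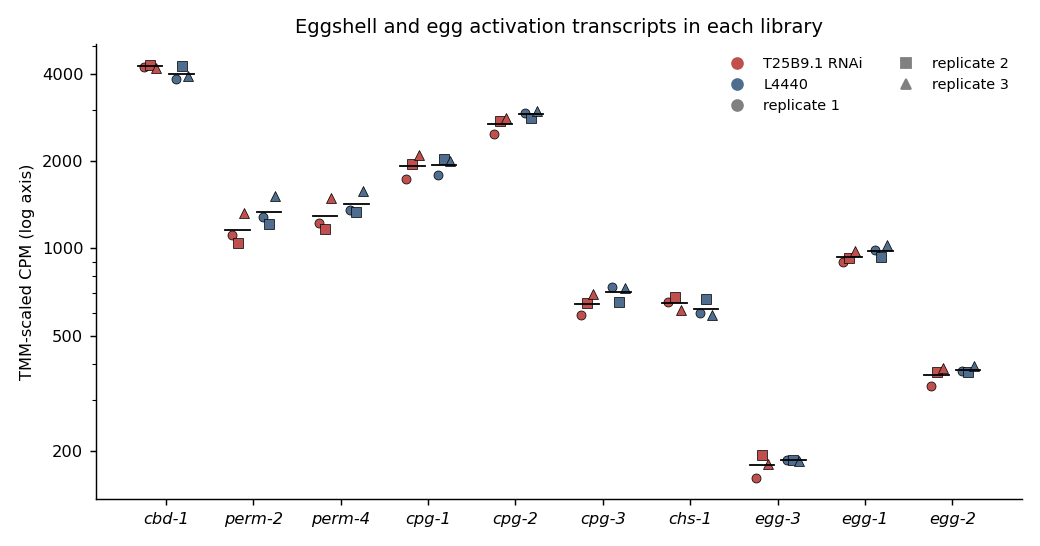
TMM-scaled CPM on a log axis for each of the 10 transcripts, with T25B9.1 RNAi libraries in red and L4440 libraries in blue, a symbol for each replicate and a bar at each group mean (n = 3). Levels ranged from 161 CPM for egg-3 to 4295 CPM for cbd-1, and the groups overlapped for every transcript.

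The vitelline layer genes came from chromosome IV. The gene cbd-1 (WBGene00010351) lies on the plus strand from 11372991 to 11377627 in build WBcel235 and encodes a protein with chitin-binding domains. It stood at 4230.2, 4295 and 4192 CPM in T25B9.1 RNAi libraries, against 3824, 4249.9 and 3915 CPM in L4440 libraries. The RNAi values lay close together, and L4440 replicate 2 fell among them. For cbd-1 the log2 fold change was 0.09 (SE 0.0892, edgeR adjusted p = 0.796). By mean CPM, cbd-1 was the transcript of rank 5 among all tested genes.

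The gene perm-2 (WBGene00016636), which encodes a vitelline layer protein needed for a closed eggshell, had the lowest log2 fold change of the 10. It was at 1109, 1044 and 1327 CPM in T25B9.1 RNAi libraries, against 1281, 1216 and 1512 CPM in L4440 libraries. The third replicate was the highest of its group on both sides, and RNAi replicate 3 lay above L4440 replicates 1 and 2. For perm-2 the log2 fold change was -0.20 (SE 0.119, edgeR adjusted p = 0.717). Leaving out L4440 replicate 3 gave -0.11, and leaving out T25B9.1 RNAi replicate 3 gave -0.31.

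Its partner perm-4 (WBGene00016638), whose product works with PERM-2 in the same layer, was at 1227, 1163 and 1494 CPM in T25B9.1 RNAi libraries, against 1354, 1331 and 1578 CPM in L4440 libraries. The order of libraries was close to that of perm-2, with replicate 3 highest and replicate 2 lowest in each group. With perm-4 the log2 fold change was -0.13 (SE 0.117, edgeR adjusted p = 0.766). It was -0.05 when L4440 replicate 3 was left out and -0.25 when T25B9.1 RNAi replicate 3 was.

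These genes are head-to-head neighbours. The gene perm-4 occupies 1121494 to 1125107 on the minus strand and perm-2 occupies 1126790 to 1128865 on the plus strand, with 1682 bases and 0 protein-coding genes between them. Their profiles over the 6 libraries, each taken from its own mean, were 0.0398 apart on the log2 scale (root mean square), the second smallest distance among the 45 pairs of the 10 genes. The ratio of perm-2 to perm-4, both in CPM per kilobase of exon, was 1.36, 1.35 and 1.34 in T25B9.1 RNAi libraries and 1.42, 1.37 and 1.44 in L4440 libraries. The ratio was thus a little lower in each RNAi library. Such a gap between groups occurred for 2 of the 45 pair ratios and was not tested. The 10.9% of all tested genes whose groups did not overlap refers to single levels, so it is no measure for ratios of pairs. A share over ratios of other gene pairs is not given here. Among the 10 transcripts, perm-2 and perm-4 also varied most between replicates, with a within-group SD of 0.172 and 0.165 on the log2 scale, against a median of 0.0983 for the 2331 tested genes of at least 100 CPM.

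The chitin synthase gene chs-1 (WBGene00000496, chromosome I, 11 exon blocks) was at 651, 681 and 612 CPM in T25B9.1 RNAi libraries, against 600 CPM, 669 CPM and 590 CPM in L4440 libraries. The second replicate was the highest of each group. A log2 fold change of 0.06 was fitted for chs-1 (SE 0.0822, adjusted p = 0.834 by edgeR), and it shrank to 0.01 without T25B9.1 RNAi replicate 2. The chs-1 profile followed that of cbd-1, the gene of the layer outside the chitin, at a distance of 0.0414, the third smallest of the 45. These were also the 2 genes of the 10 with a log2 fold change above 0.

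None of the chondroitin proteoglycan genes passed the test, and cpg-1 differed least among them. The gene cpg-1 (WBGene00000465, chromosome III, plus strand, 4489359 to 4491392) was at 1737, 1956 and 2093 CPM in T25B9.1 RNAi libraries, against 1793, 2023 and 2001 CPM in L4440 libraries. Replicate 1 was the lowest of either group. Its log2 fold change was -0.01 (SE 0.0995, edgeR adjusted p = 0.985), and its sign turned with library totals only (0.02), upper quartile factors (0.02), the stricter filter (0.01) and without L4440 replicate 2 (0.03), L4440 replicate 3 (0.01) or T25B9.1 RNAi replicate 1 (0.06).

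The gene cpg-2 (WBGene00015102, chromosome III, minus strand, 7102092 to 7103990) was at 2473, 2755 and 2817 CPM in T25B9.1 RNAi libraries, against 2937, 2814 and 2976 CPM in L4440 libraries. RNAi replicate 3 and L4440 replicate 2 met at almost the same level, and the other RNAi libraries lay below every L4440 library. The log2 fold change was -0.12 (SE 0.0898, edgeR adjusted p = 0.742).

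The gene cpg-3 (WBGene00011063, chromosome I), which encodes another chondroitin proteoglycan of the egg, was at 588, 647 and 698 CPM in T25B9.1 RNAi libraries, against 738, 653 and 732 CPM in L4440 libraries. Again RNAi replicate 1 was the lowest of the 6, and L4440 replicate 2 lay among the RNAi values. The log2 fold change was -0.13 (SE 0.0907, edgeR adjusted p = 0.723).

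The egg activation gene egg-3 (WBGene00009701, chromosome II, minus strand, 10882408 to 10884441) was the least abundant of the 10. It was at 161, 194 and 180 CPM in T25B9.1 RNAi libraries, against 187, 186 and 184 CPM in L4440 libraries. The L4440 values were nearly equal, and the RNAi values lay on both sides of them. The log2 fold change was -0.06 (SE 0.0775, edgeR adjusted p = 0.844), and 0.01 without T25B9.1 RNAi replicate 1.

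The oocyte surface genes egg-1 and egg-2 are paralogs on chromosome III. The gene egg-1 (WBGene00015083, plus strand, 5728180 to 5730159) was at 896, 924 and 975 CPM in T25B9.1 RNAi libraries, against 987, 931 and 1023 CPM in L4440 libraries. The log2 fold change was -0.07 (SE 0.0783, edgeR adjusted p = 0.798). The gene egg-2 (WBGene00019811, minus strand, 7058527 to 7060583) was at 336, 375 and 388 CPM in T25B9.1 RNAi libraries, against 377, 374 and 394 CPM in L4440 libraries. Its log2 fold change was -0.06 (SE 0.0769, edgeR adjusted p = 0.841), and apart from RNAi replicate 1 its libraries differed little. Per kilobase of exon, egg-1 was 2.62, 2.42 and 2.47 times as high as egg-2 in T25B9.1 RNAi libraries and 2.58, 2.45 and 2.56 times as high in L4440 libraries. How the counting treated reads that match both paralogs is not given in the sources used here, so the split between them is uncertain to that extent.

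**Figure D2:**
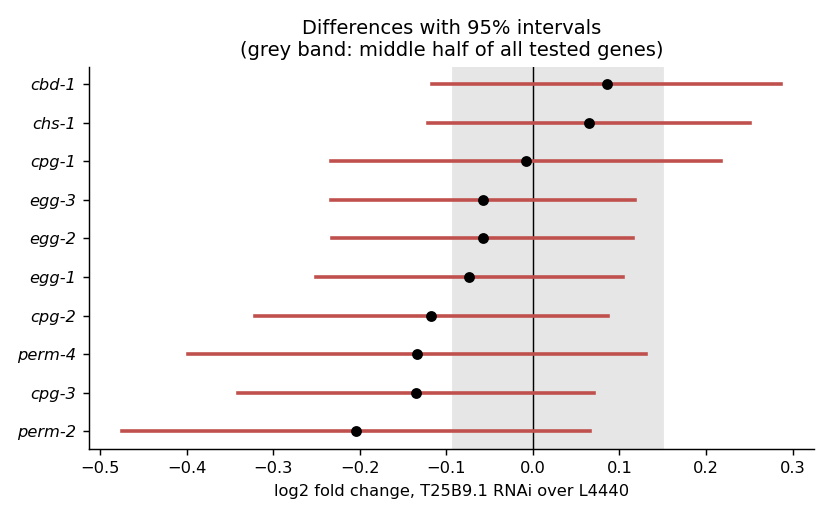
Log2 fold change of T25B9.1 RNAi over L4440 for each transcript (points) with its 95% interval (lines), from edgeR's fit of all 6 libraries, over the interquartile range of all tested genes in grey. Every interval includes 0, and the points run from -0.20 for perm-2 to 0.09 for cbd-1.

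On the scale of CPM per kilobase of exon, which allows levels of different genes to be compared, perm-2 was highest at 1576 ± 202 in T25B9.1 RNAi libraries and 1816 ± 211 in L4440 libraries (SD, n = 3 each). It was followed by cpg-2 at 1556 ± 106 with T25B9.1 RNAi and 1688 ± 49.2 with L4440, and by perm-4 at 1170.4 ± 159 with T25B9.1 RNAi and 1285 ± 124 with L4440. Next came cpg-1 at 1021 ± 95.1 with T25B9.1 RNAi and 1027 ± 67.3 with L4440, and cbd-1 at 1004 ± 12.4 with T25B9.1 RNAi and 947 ± 53.1 with L4440. The long cbd-1 transcript, with 4221 exonic bases, thus stood in position 5 per length although it had the highest CPM of the 10, and perm-2, with 736 exonic bases, stood first.

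The lower positions were held by cpg-3, egg-1, egg-2, chs-1 and egg-3. The enzyme gene chs-1 was at 151 ± 8.10 CPM per kilobase with T25B9.1 RNAi and 144 ± 9.95 with L4440, and egg-3 at 99.4 ± 9.07 with T25B9.1 RNAi and 103 ± 0.567 with L4440. Of the neighbours in this order, perm-2 and cpg-2, perm-4 and cpg-1, and cpg-1 and cbd-1 had overlapping ranges over the 6 libraries, and every other neighbouring pair was apart. The 7 structural and surface genes from perm-2 to egg-1 ranked from 65 to 199 among the 13281 tested genes with an exon length, egg-2 ranked 518, chs-1 776 and egg-3 1282. Together the 10 transcripts took 1.37% to 1.51% of all counts in the T25B9.1 RNAi libraries and 1.39% to 1.51% in the L4440 libraries.

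**Figure D3:**
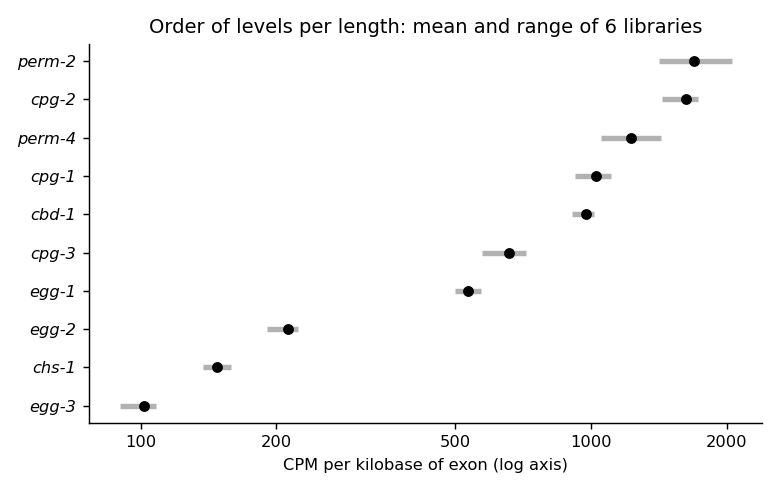
CPM per kilobase of exon on a log axis for each transcript, as the mean (points) and range (lines) of the 6 libraries. The order runs from perm-2 with a mean of 1696 to egg-3 with a mean of 101, and the lines of perm-2 and cpg-2, perm-4 and cpg-1, and cpg-1 and cbd-1 overlap.

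The transcripts did not share a single profile over the libraries. T25B9.1 RNAi replicate 1 had the lowest value of 6 of the 10, namely egg-1, egg-2, egg-3, cpg-1, cpg-2 and cpg-3, and a mean deviation of -0.12 log2 over the 10. In the same library perm-2 and perm-4 were low but lowest in RNAi replicate 2, and cbd-1 and chs-1 were above their own means. L4440 replicate 3 had the highest value of 5 of the 10 and a mean deviation of 0.08. The closest pair was egg-2 and cpg-2, at a distance of 0.0337, and egg-2 and cpg-2 lie 41508 bases apart on the minus strand of chromosome III with 17 protein-coding genes between them. The most distant pair was perm-2 and chs-1, at 0.246. Without T25B9.1 RNAi replicate 1 the median log2 fold change of the 10 was -0.03 and 6 of the 10 were below 0. Leaving out T25B9.1 RNAi replicate 3 instead gave a median of -0.11.

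**Figure D4:**
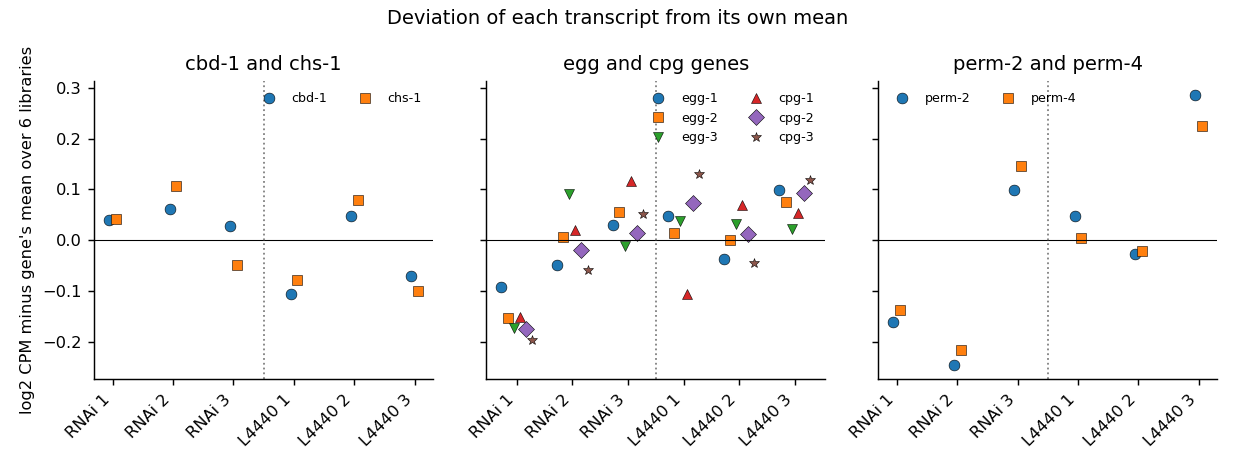
Deviation of each transcript's log2 CPM from its own mean over the 6 libraries, with T25B9.1 RNAi libraries left and L4440 libraries right of the dotted line. The egg and cpg genes lie below their mean in RNAi replicate 1, where cbd-1 and chs-1 lie at 0.04, and perm-2 and perm-4 are highest in L4440 replicate 3.

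The labels number the libraries 14, 18 and 22 (T25B9.1 RNAi) and 13, 17 and 21 (L4440). Libraries with consecutive numbers deviated together, though the labels name nothing that they share. Within these pairs perm-2 differed by -0.21, -0.22 and -0.19 log2, the most even difference of the 10 in relation to its size. The gene perm-4 differed by -0.14, -0.20 and -0.08, and cpg-3 by -0.33, -0.01 and -0.07. Lower in all 3 pairs were 5 of the 10 (egg-1, cpg-2, cpg-3, perm-2 and perm-4), beside 18.6% of all tested genes. Higher in all 3 were cbd-1 and chs-1, beside 18.5%. With library totals only, 3 of the 10 were lower in all 3 pairs. The share over all genes with that scaling is not given here. With the pairs as a block, edgeR gave perm-2 a log2 fold change of -0.21 (unadjusted p = 0.0163, adjusted p = 0.451) and called 0 of the 10. In that fit 1457 genes (10.9%) had an unadjusted p under 0.05 and 0.0% an adjusted p under 0.05.

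Other genes of the same processes gave a like picture. The genes named from each list are those with its smallest p-values in this comparison. Groups without overlap are therefore selected for among them, and over all tested genes 10.9% had no overlap. Of 12 further egg activation and eggshell genes 8 were tested, of which 0 passed, 7 were below 0 and the median log2 fold change was -0.11. The pseudophosphatase genes egg-4 and egg-5, whose products hold back the kinase MBK-2, and cpg-8 had unadjusted p-values of 0.0514, 0.0846 and 0.0721 by edgeR, in that order. The gene egg-4 was at 69.4, 75.1 and 72.7 CPM in T25B9.1 RNAi libraries, against 81.5, 81.2 and 76.9 CPM in L4440 libraries, with no overlap (difference of -0.14 log2, SE 0.0626, edgeR adjusted p = 0.717). The gene egg-5 was at 89.7, 103 and 91.7 CPM in T25B9.1 RNAi libraries, against 107, 103.9 and 102 CPM in L4440 libraries, where RNAi replicate 2 reached the L4440 range. The cpg-8 transcript averaged 109 ± 7.79 CPM with T25B9.1 RNAi and 124 ± 14.7 CPM with L4440, and perm-3 averaged 88.5 ± 6.50 CPM with T25B9.1 RNAi and 97.2 ± 6.18 CPM with L4440 (SD, n = 3 each).

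Chitin is built from UDP-N-acetylglucosamine, and chondroitin is assembled by the products of the sqv genes and mig-22. Of 15 tested genes of these routes 0 passed, 11 were below 0 and the median log2 fold change was -0.07. Leaving out RNAi replicate 2 gave -0.153 and leaving out RNAi replicate 1 gave -0.0064, the extremes when 1 library was dropped. The lowest p belonged to sqv-2, a galactosyltransferase gene of the chondroitin linker, at 49.3 ± 4.52 CPM with T25B9.1 RNAi and 55.9 ± 3.57 CPM with L4440. The linker gene sqv-3, another galactosyltransferase, was at 49.1 ± 3.53 CPM with T25B9.1 RNAi and 54.5 ± 2.30 CPM with L4440. The glucosamine 6-phosphate acetyltransferase gene gna-1 was at 4.77, 4.30 and 3.69 CPM in T25B9.1 RNAi libraries, against 3.32, 3.37 and 3.45 CPM in L4440 libraries (log2 fold change 0.33, SE 0.161, edgeR adjusted p = 0.717). Its groups did not overlap, and its level was low.

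The inner permeability barrier needs fatty acid synthesis and cytochrome P450 enzymes, and 0 of 7 such genes passed (4 above 0, median log2 fold change 0.02, from -0.0035 without L4440 replicate 1 to 0.05 without L4440 replicate 2). The fatty acid synthase gene fasn-1 was at 460, 278 and 286 CPM in T25B9.1 RNAi libraries, against 240, 291 and 212 CPM in L4440 libraries (log2 fold change 0.46, SE 0.195, edgeR adjusted p = 0.717). Its high value lay in RNAi replicate 1. The acetyl-CoA carboxylase gene pod-2 was likewise highest in RNAi replicate 1, at 502 CPM there, 402 and 416 CPM in the other RNAi libraries and 369, 417 and 369 CPM in L4440 libraries. Both enzymes also serve tissues other than the egg. The P450 gene cyp-31A3 was at 77.1, 92.4 and 92.5 CPM in T25B9.1 RNAi libraries, against 98.8, 93.9 and 103 CPM in L4440 libraries, and it can share reads with its close relative cyp-31A2.

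Release of cortical granules delivers the chondroitin proteoglycans. Of 7 genes for this step 0 passed, 5 were below 0 and the median log2 fold change was -0.07, from -0.124 with RNAi replicate 2 dropped to -0.033 without L4440 replicate 1. The syntaxin gene syx-4 was at 30.8, 33.0 and 34.1 CPM in T25B9.1 RNAi libraries, against 42.5, 35.7 and 37.8 CPM in L4440 libraries, with no overlap (log2 fold change -0.25, SE 0.0870, unadjusted p = 0.0201, edgeR adjusted p = 0.717). The small GTPase gene rab-11.1 was at 484 ± 35.7 CPM with T25B9.1 RNAi and 515 ± 29.4 CPM with L4440, and the caveolin gene cav-1 at 210 ± 9.01 CPM with T25B9.1 RNAi and 221 ± 40.0 CPM with L4440.

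Egg activation also ends the meiotic divisions, and of 19 tested genes of that cell cycle 0 passed, 15 were below 0 and the median log2 fold change was -0.04. Its extremes with 1 library dropped were -0.0942, for RNAi replicate 2, and -0.0067, for L4440 replicate 2. The kinase gene cdk-1 was at 313, 352 and 336 CPM in T25B9.1 RNAi libraries, against 387, 355 and 370 CPM in L4440 libraries, with no overlap (log2 fold change -0.15, SE 0.0748, edgeR adjusted p = 0.717). The gene memi-3, which acts in female meiosis, was at 141 ± 6.57 CPM with T25B9.1 RNAi and 159 ± 11.4 CPM with L4440. The sperm genes of fertilisation were almost unread: of 8 listed, 7 were in the table, none of these had more than 15 counts in any library, and 0 were tested. The sperm-supplied egg activation gene spe-11 had at most 5 counts.

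Markers of the cell types in a whole worm put these values in context, in lists chosen with earlier results of these data known. The 13 oocyte and germline markers summed to 9459.9 to 9703 CPM in T25B9.1 RNAi libraries and 9338 to 9872 CPM in L4440 libraries, with 7 of 13 above 0, a median log2 fold change of 0.02 and 0 of them past the test. The 10 markers of zygotic transcription in embryos summed to 51.9 to 67.7 CPM in T25B9.1 RNAi libraries and 47.4 to 65.2 CPM in L4440 libraries (6 of 10 above 0, median 0.03). The 12 sperm markers summed to 8.04 to 10.3 CPM in T25B9.1 RNAi libraries and 9.27 to 11.08 CPM in L4440 libraries, 4 of them were tested, and none was at 0 in all libraries. Most of each sum came from spe-15 alone, at 5.45 to 7.32 CPM, and the msp and gsp genes had at most 9 counts in any library. The 7 gonad sheath and spermatheca markers summed to 694 to 792 CPM in T25B9.1 RNAi libraries and 639 to 774 CPM in L4440 libraries (5 of 7 above 0, median 0.11).

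The library in which the egg and cpg genes were lowest had high medians for body tissue markers, though not every marker was high there. The hypodermis marker col-19 (83.0 CPM) and the neuron marker snb-1 (150 CPM) had their lowest values in that library. In T25B9.1 RNAi replicate 1 the median log2 level, taken against the L4440 mean of each gene, was 1.002 for 9 hypodermis and moulting markers, 0.99 for 6 pharynx markers, 1.04 for 6 body wall muscle markers, 0.91 for 8 neuron markers and 0.22 for 8 intestine markers. In the other RNAi libraries those medians ranged from -0.04 for hypodermis to 0.30 for hypodermis. In the L4440 libraries they ranged from -0.21 for body wall muscle to 0.37 for pharynx. The median of the 10 eggshell and egg activation genes on the same scale was -0.19 in RNAi replicate 1, -0.05 and -0.01 in RNAi replicates 2 and 3, and -0.03, -0.04 and 0.05 in L4440 libraries. For the 13 oocyte and germline markers it was 0.02, 0.03 and -0.01 in RNAi replicates 1, 2 and 3. In the L4440 libraries these markers were at -0.05, 0.03 and -0.02. The 7 gonad sheath and spermatheca markers were at 0.23, 0.06 and -0.02 in the RNAi libraries. In the L4440 libraries they were at -0.03, 0.02 and -0.004. The part of the body tissues in the egg gene values was not tested. Over all 6 libraries the list median log2 fold change was 0.53 for hypodermis, 0.48 for pharynx, 0.45 for body wall muscle, 0.53 for neurons and 0.12 for intestine. Above 0 were 7 of 9 hypodermis, 6 of 6 pharynx, 6 of 6 body wall muscle, 7 of 8 neuron and 7 of 8 intestine genes. The hypodermis values ran from -1.20 to 2.23. In each of these lists 0 genes passed edgeR's quasi-likelihood test at the adjusted threshold. At an unadjusted p under 0.05, 3 hypodermis, 2 pharynx, 1 body wall muscle, 3 neuron and 1 intestine genes were higher. Lower was 1 neuron gene. Over all 13374 tested genes 536 were higher and 290 lower at that threshold, together 6.18%. DESeq2 and limma-voom also called 0 genes in each list, while edgeR with no filter on low counts called 2 hypodermis and 2 pharynx genes. Without the filter edgeR called 123 higher and 16 lower over all genes. With RNAi replicate 1 left out these medians were 0.10 for hypodermis, 0.20 for pharynx, -0.003 for body wall muscle, 0.20 for neurons and 0.07 for intestine.

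**Figure D5:**
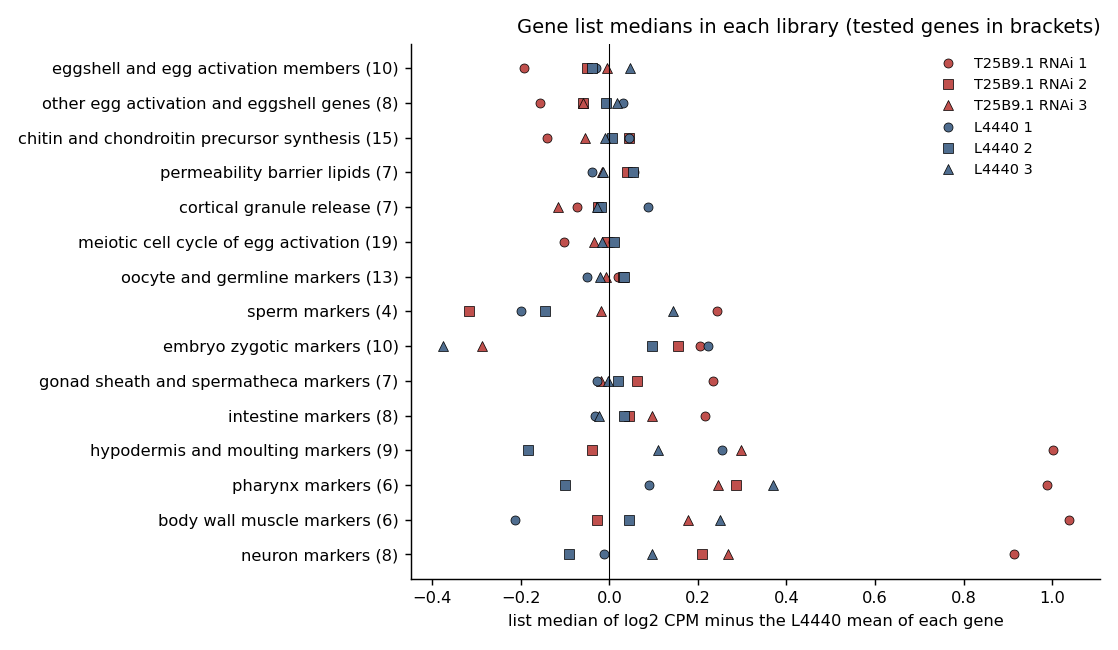
Median of log2 CPM minus the L4440 mean of each gene, for each gene list (number of tested genes in brackets) and library, with T25B9.1 RNAi libraries in red and L4440 libraries in blue. RNAi replicate 1 lies at -0.19 for the eggshell and egg activation genes and between 0.91 and 1.04 for hypodermis, pharynx, body wall muscle and neuron markers. The same library lies at 0.02 for oocyte and germline markers.

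Among 7169 other tested genes with a mean of at least 10 CPM, the 5 whose centred profile lay nearest to the mean profile of the 10 were smu-2, pigt-1, oma-2, R10E11.6 and slc-17.2, at distances of 0.00628 to 0.0144 log2 over the 6 libraries. The gene oma-2, which encodes a zinc finger regulator of oocyte maturation, was at 917 ± 49.7 CPM with T25B9.1 RNAi and 967 ± 27.8 CPM with L4440 (SD, n = 3 each). The splicing factor gene smu-2 was at 95.5 ± 5.24 CPM with T25B9.1 RNAi and 99.1 ± 2.75 CPM with L4440. The mean profile itself is shallow, with a root mean square of 0.0622 log2, and for cbd-1, perm-2 and chs-1 the distance from it was 0.108, 0.128 and 0.127, farther than that of 3908, 4726 and 4712 other genes.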

How the data were processed

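Libraries were built from total RNA of whole worms with an Illumina TruSeq v2 kit, per the labels' protocols, and this kit keeps no strand. The deposited table holds whole-number counts per gene. The tools were featureCounts 1.4.6-p4, STAR 2.4.1d and bcl2fastq 1.8.4, and the build was WBcel235, per the submitters' processing notes. Their options and the annotation release were not given. A second table, of normalized values, was not used. Symbols and exon lengths came from Ensembl release 115 of the same build. The members and gene lists were chosen with earlier results of these data known.

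After filterByExpr and TMM scaling, the quasi-likelihood test of edgeR 4.0.16 (functions glmQLFit, glmQLFTest; R 4.3.3) was run 2-sided. P-values were adjusted by Benjamini-Hochberg over 13374 genes, with a threshold of 0.05. Each SE was obtained as the absolute log2 fold change over the square root of F. The 95% intervals use the total degrees of freedom of the fit, residual plus prior. CPM are given per library or as mean ± SD. With 3 against 3 libraries an exact permutation test reaches at best p = 0.1, so none was used. Named genes are the 10 members, T25B9.1, up to 4 genes per list with the smallest p (marker lists are given as sums) and the 5 genes nearest to the mean profile. The listed names cpg-5, cpg-6, K06B9.2, trp-3 and memi-1 gave no value here.

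The labelled perturbation gave the groups, and replicates were numbered in accession order. Consecutive library numbers were taken as pairs in an alternative fit, because deviations from the group means correlated by 0.216 (13 and 14), 0.418 (17 and 18) and 0.285 (21 and 22). The alternatives tried were RLE factors, upper quartile factors, library totals only, DESeq2 1.42.0, limma-voom (limma 3.58.1), no filter, a filter of 1 CPM and 10 counts in 3 libraries, each library left out, and the block of pairs. Exons of egg-1, egg-3, cpg-3 and perm-2 share 42, 21, 36 and 25 bases with genes on the opposite strand, and chs-1 shares 5 with a gene on the same strand.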

Additional observations from a re-analysis of the deposited data

How the results depend on the processing

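Under all 14 alternatives, 0 of the 10 eggshell and egg activation genes passed an adjusted p under 0.05, and the smallest adjusted p was 0.451, for perm-2 in the fit with the replicate block of consecutive library numbers. That block changed no call. The median log2 fold change of the 10 stayed below 0, from -0.027 to -0.105 with 1 library left out and from -0.040 to -0.079 otherwise. The sign of cpg-1 turned with upper quartile factors (0.016), library totals only (0.017) and the stricter filter (0.0059), and with 1 library left out it ran from -0.0717 to 0.0569, while egg-3 ran from -0.138 to 0.0067. The members lower in all 3 pairs numbered 3 with library totals only, an alternative chosen after seeing the data. Over all genes, calls were 11 higher and 4 lower by DESeq2, 123 higher and 16 lower with no filter, and 1 lower with RLE factors, against 0 and 0 by edgeR's quasi-likelihood test. With 1 library left out they were 0 to 1 higher (the 1 without T25B9.1 RNAi replicate 1) and 0 lower. With 3 libraries a group, the depth of the members was not the limit: counting error was at most 1.53% of a level, and the spread between libraries set the intervals.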
